A study of Homo sapiens with 6 samples.

Results

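The genes described here are 46 cyclins, cyclin-dependent kinases (CDKs), CDK inhibitors, CDC25 phosphatases, WEE1-type kinases and CKS proteins, found by their gene names among the 58735 genes of a table of RNA-seq values. They comprise 20 cyclins and 11 CDKs, and the remainder act on cyclin-CDK complexes. The cells were PC9-BrM3, a derivative of the human lung adenocarcinoma line PC9 selected for brain metastasis by repeated injection into immunodeficient mice. In BrM3-shAKR1B10 (n = 3 libraries) AKR1B10 was silenced with a short hairpin RNA in the LV2 lentiviral vector, and BrM3-shNC (n = 3 libraries) carried a negative control hairpin in the same vector, so that both groups held an shRNA construct. By the paper, routine culture was in RPMI1640 with fetal bovine serum, penicillin and streptomycin, and no drug is named for the sequenced cells. Only 1 hairpin sequence against AKR1B10 was used for these libraries, and silencing of AKR1B10 and off-target effects of that hairpin cannot be told apart. The labels do not say whether the 3 libraries of a group came from separate cultures, so the p-values measure only the spread between these samples, which may be technical.

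Most CDKs are active only when bound to a cyclin. In dividing cells, D-type cyclins with CDK4 or CDK6 open G1 phase, E-type cyclins with CDK2 drive entry into S phase, cyclin A acts through S phase and G2, and B-type cyclins with CDK1 start mitosis, and transcripts of many of these cyclins rise and fall with the phase of the cycle. A second set of cyclins (C, H, K, L and T types) pairs with kinases that include CDK7, CDK8, CDK9, CDK11, CDK12, CDK13 and CDK19, acts on RNA polymerase II, Mediator or splicing, and is present throughout the cycle. WEE1 and PKMYT1 place inhibitory phosphates on CDKs, CDC25 phosphatases remove them, and the CIP/KIP and INK4 proteins block the kinases by binding.

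Levels are given as FPKM, fragments per kilobase of gene length scaled by the authors to a size of each library, in the order of replicates 1, 2 and 3. That size was larger than the reads on genes in the BrM3-shAKR1B10 libraries (17669819 against 17253067 in replicate 1). It was smaller in the BrM3-shNC libraries (18350584 against 18709028 in replicate 1). The libraries held 16964504 to 18709028 reads on genes, and 3 reads, taken as the smallest level shown, were worth 0.163 to 0.177 FPKM for a gene of 1000 bases. This limit covers counting error only. AKR1B10, an aldo-keto reductase and the silenced gene (chr7:134527592-134541408, plus strand, GRCh38), was at 799, 775 and 772 FPKM in BrM3-shNC and at 108, 107 and 110.2 FPKM in BrM3-shAKR1B10. Its mean in BrM3-shAKR1B10 was 13.9% of that in BrM3-shNC. Of the cell type markers, 5 of 5 epithelial genes reached a mean of 1 FPKM (summed level 2708 to 2771 FPKM in BrM3-shAKR1B10 and 2483 to 2782 in BrM3-shNC). The lung lineage markers NKX2-1, NAPSA, SFTPB and SFTPC did not, 0 of 4, with summed levels of 0.591 to 0.927 FPKM in BrM3-shAKR1B10 and 0.465 to 0.666 in BrM3-shNC. None of 3 leukocyte markers reached 1 FPKM, against 1 of 3 each for fibroblast, endothelial and neural or glial markers. The summed levels of these last lists were low but separate between the groups, at 1.20 to 1.35 FPKM in BrM3-shAKR1B10 and 2.03 to 2.05 in BrM3-shNC for the fibroblast list (COL1A2 at 0 in all libraries), 2.10 to 2.37 and 1.52 to 1.79 for the endothelial list, and 2.52 to 2.70 and 3.43 to 3.56 for the neural and glial list. COL1A1 was called lower (log2 fold change -0.67) and CDH5 higher (log2 fold change 0.65), and the part of these markers in the results below was not tested. Replicate 1 of BrM3-shNC differed more from its 2 partners (chi-square per gene 4.55 and 5.03) than they did from each other (2.52), and without it the numbers of cyclin-CDK genes called below were again 15 lower and 2 higher.

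Of the 46 genes, 43 had a mean of at least 1 FPKM over the 6 libraries and entered a limma fit of log2(FPKM + 0.1) across all 13150 genes that passed this filter, with p-values adjusted over all of them by Benjamini-Hochberg. Log2 fold changes are BrM3-shAKR1B10 over BrM3-shNC on that scale, which understates the change of low genes. A gene was called where the adjusted p was under 0.05 and the log2 fold change was beyond 0.5 in either direction. By this rule BrM3-shAKR1B10 had 15 lower and 2 higher genes among the 43, and 26 were neither. Of all genes tested, 7.45% were called lower and 5.83% higher. The lower genes were CCNA2, CCNB1, CCNB2, CCNF, CCNI, CDK1, CDK8, CDKN2C, CDKN2D, CDKN3, CDC25B, CDC25C, PKMYT1, CKS1B and CKS2, and the higher genes were CCND3 and CDKN1A. A log2 fold change under -1 was reached by 8 of the lower genes (CCNA2, CCNB1, CCNB2, CDK1, CDKN3, CDC25B, CDC25C and CKS2), against 1.56% of all genes tested that were called and under -1. At any fold change, 22 were lower and 7 higher at an adjusted p under 0.05 (limma), and 14 were not past it. The same rule took 23.1% of all genes tested as lower and 19.4% as higher. The groups did not overlap for 35 of the 43 genes, where 54.7% of all genes tested did not. The median log2 fold change was -0.19 over the 43 genes and -0.01 over all genes tested. In bulk RNA, a smaller share of cells in the phase where a gene is transcribed and less RNA per cell cannot be told apart.

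**Figure D1:**
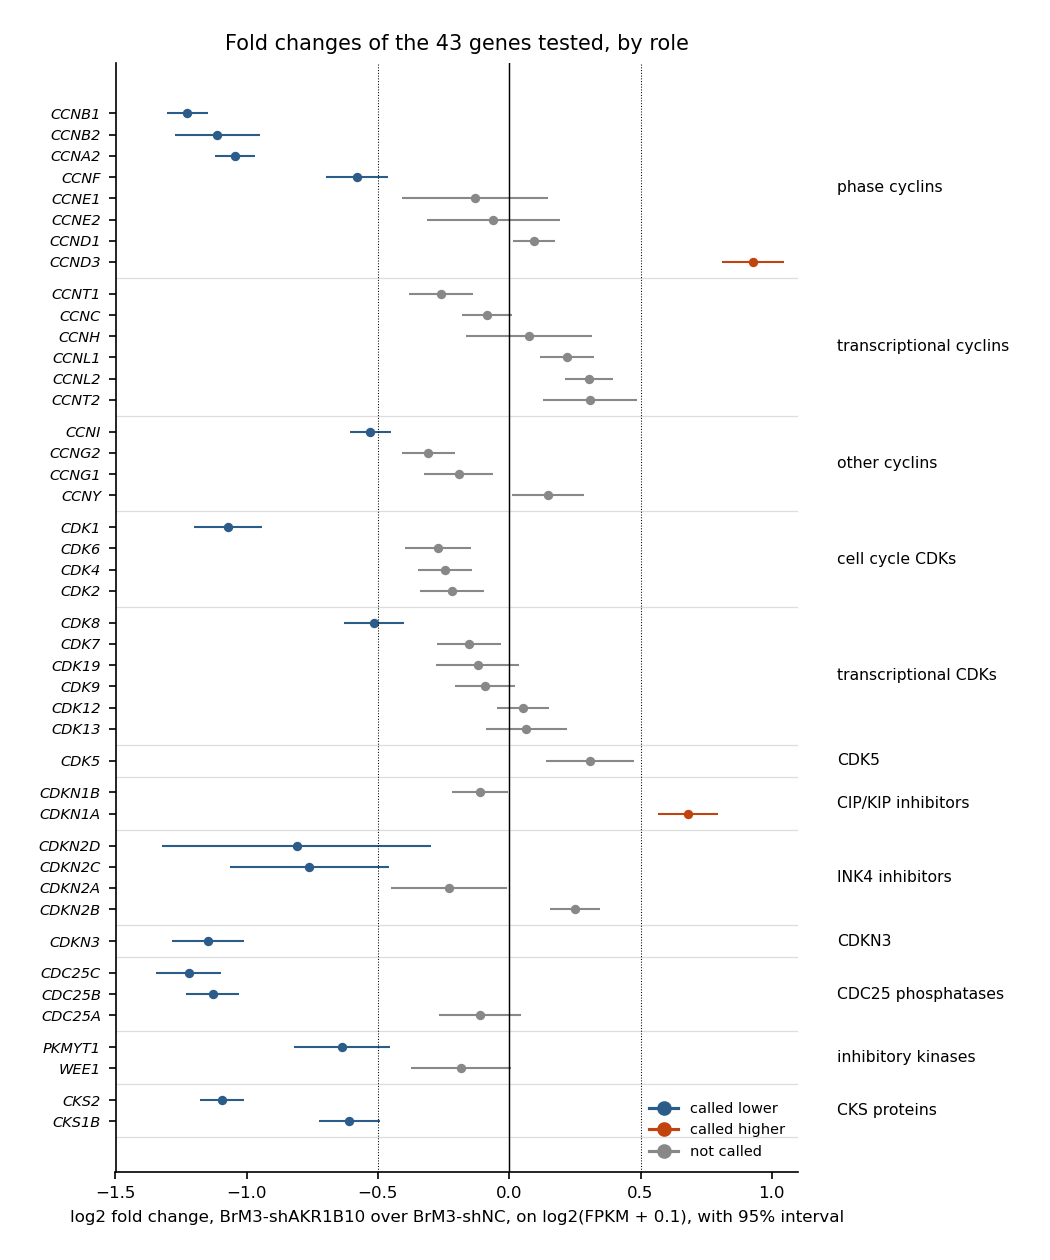
Log2 fold changes (BrM3-shAKR1B10 over BrM3-shNC, on log2(FPKM + 0.1), x axis) of the 43 genes tested, by role, with 95% intervals from limma and dotted lines at 0.5 and -0.5. Blue points are the 15 genes called lower, orange points the 2 called higher (CCND3 and CDKN1A) and grey points the 26 not called.

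The phase-specific cyclins moved in different directions. Of 9, 8 were tested, and the 4 with roles from S phase to mitosis or at G2, CCNA2, CCNB1, CCNB2 and CCNF, were lower, beside 7.45% of all genes tested. CCND3 was higher, beside 5.83%. CCND1, CCNE1 and CCNE2 were not called, and CCND2 had 0 reads in all 6 libraries, where 3 reads in a library would have been 0.0228 to 0.0248 FPKM.

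CCNB1 encodes cyclin B1, the main partner of CDK1 at the entry into mitosis (ENSG00000134057, chr5:69167010-69178245, plus strand). It was at 119.7, 124 and 120.3 FPKM in BrM3-shNC and at 51.6, 50.5 and 53.2 FPKM in BrM3-shAKR1B10. The groups were far apart against the spread within each, and the mean fell to 42.7% of BrM3-shNC (log2 fold change -1.23 ± 0.03, SE, limma adjusted p = 8.72e-06). CCNB2, the other mitotic B-type cyclin (ENSG00000157456, chr15:59105078-59125045, plus strand), was at 28.0, 26.5 and 24.5 FPKM in BrM3-shNC and 11.3, 12.9 and 12.2 FPKM in BrM3-shAKR1B10. All 3 silenced libraries lay below all 3 controls, at a log2 fold change of -1.11 ± 0.07 (SE, limma adjusted p = 6.32e-05). CCNB1 transcript exceeded that of CCNB2 by about the same ratio in both groups, 4.62 ± 0.318 in BrM3-shNC and 4.29 ± 0.341 in BrM3-shAKR1B10 (SD, n = 3), a difference of about 1 SD.

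CCNA2, cyclin A2, which binds CDK2 in S phase and CDK1 in G2 (ENSG00000145386, chr4:121816444-121823933, minus strand), was at 35.0, 34.0 and 35.0 FPKM in BrM3-shNC. It was at 16.9, 16.4 and 17.0 FPKM in BrM3-shAKR1B10, and no value of one group came near the other (log2 fold change -1.04 ± 0.03, SE, limma adjusted p = 9.91e-06). CCNF, cyclin F, is the substrate receptor of an SCF ubiquitin ligase and does not activate a CDK (ENSG00000162063, chr16:2429394-2458854, plus strand). It was at 8.83, 9.18 and 9.79 FPKM in BrM3-shNC and 6.09, 6.11 and 6.28 FPKM in BrM3-shAKR1B10. Its decrease was smaller, to 66.5% of the BrM3-shNC mean, and the groups did not overlap (log2 fold change -0.58 ± 0.05, SE, limma adjusted p = 0.000233).

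The D-type cyclins, which bind CDK4 and CDK6, did not follow the mitotic cyclins. CCND3 (ENSG00000112576, chr6:41934933-42050357, minus strand) was at 19.1, 20.2 and 20.5 FPKM in BrM3-shNC and at 39.5, 35.8 and 39.0 FPKM in BrM3-shAKR1B10. It rose 1.91-fold with no overlap (log2 fold change 0.93 ± 0.05, SE, limma adjusted p = 3.86e-05), the largest increase among the 43 genes. CCND1, the most abundant cyclin per length in both groups, was at 134, 128 and 127 FPKM in BrM3-shNC and 135.5, 140.5 and 139 FPKM in BrM3-shAKR1B10. The groups were next to each other without overlap, and the difference missed the adjusted threshold (log2 fold change 0.09, 95% interval 0.02 to 0.17, limma adjusted p = 0.0567). It passed on TPM, after quantile normalization, with voom and without replicate 1 of BrM3-shNC (limma adjusted p = 0.015, 0.0133, 0.0011 and 0.023), and over all 15 alternatives the adjusted p ran from 0.0011 to 0.163. CCND3 made up 13.4% ± 0.743 of the summed FPKM of CCND1 and CCND3 in BrM3-shNC and 21.6% ± 1.16 in BrM3-shAKR1B10 (SD, n = 3). Such ratios are given as descriptions and were not tested. The smallest p of an exact permutation test of 3 against 3 libraries would be 0.1.

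The E-type cyclins, the partners of CDK2 at the start of S phase, overlapped between the groups. CCNE1 was at 3.83, 3.25 and 3.87 FPKM in BrM3-shNC and 3.71, 2.85 and 3.45 FPKM in BrM3-shAKR1B10, with a log2 fold change of -0.13 (95% interval -0.41 to 0.15, limma adjusted p = 0.407). CCNE2 was at 3.22, 2.68 and 2.73 FPKM in BrM3-shNC and 2.50, 3.05 and 2.71 FPKM in BrM3-shAKR1B10, with a log2 fold change of -0.06 (95% interval -0.32 to 0.19, limma adjusted p = 0.672). The intervals of both genes lie inside ±0.5, the size needed for a call. Of the exon bases of CCNE2, 37.1% are shared with other genes, mainly INTS8 on the opposite strand, and the library protocol does not mark strand.

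Of the 7 transcriptional cyclins, 6 were tested and 0 were called in either direction, beside 7.45% lower and 5.83% higher of all genes tested, so that a count of 0 among 6 is near the background. Of the 8 phase-specific cyclins tested, 4 were lower and 1 higher. In the same limma fit 1 transcriptional cyclin was lower (CCNT1) and 3 were higher (CCNL1, CCNL2 and CCNT2) at an adjusted p under 0.05 with any fold change, beside 23.1% lower and 19.4% higher of all genes tested. Their log2 fold changes ran from -0.26 to 0.31 with a median of 0.15, against -1.23 to 0.93 with a median of -0.35 for the 8 phase-specific cyclins tested. The median over the transcriptional cyclins was 0.08 with no filter on low values, and with a mean of at least 5 FPKM the medians were 0.22 and -0.81. The groups did not overlap for 5 of the 6 transcriptional cyclins and for 6 of the 8 phase-specific cyclins, where 54.7% of all genes tested did not. These counts and medians are descriptions, and the difference between the sets was not tested.

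CCNT1, the cyclin T1 subunit of the elongation kinase P-TEFb, was at 6.23, 5.99 and 5.88 FPKM in BrM3-shNC and 5.23, 5.04 and 4.81 FPKM in BrM3-shAKR1B10 (log2 fold change -0.26 ± 0.05, SE, limma adjusted p = 0.00709). Its paralog CCNT2, the alternative cyclin of P-TEFb, went the other way with a log2 fold change of 0.31 ± 0.08 (SE, limma adjusted p = 0.0166). The groups did not overlap for either gene, and the ratio of CCNT1 to CCNT2 was 1.06 ± 0.0505 in BrM3-shNC and 0.710 ± 0.0609 in BrM3-shAKR1B10 (SD, n = 3). CCNH, the partner of CDK7, was at 2.48, 2.31 and 2.30 FPKM in BrM3-shNC and 2.19, 2.76 and 2.57 FPKM in BrM3-shAKR1B10, with overlapping groups (log2 fold change 0.08, 95% interval -0.16 to 0.32, limma adjusted p = 0.574). Of its exon bases, 22.3% are shared with other genes, mainly RASA1 on the opposite strand. CCNL1 and CCNL2, cyclins L1 and L2 of the CDK11 kinases linked to splicing, had log2 fold changes of 0.22 and 0.30 (limma adjusted p = 0.00725 and 0.0012). CCNC, the cyclin of the Mediator kinases CDK8 and CDK19, had a log2 fold change of -0.08 (limma adjusted p = 0.13). CCNK, the partner of CDK12 and CDK13, was at 0.780 to 0.997 FPKM over the 6 libraries, under the level tested, and 59.5% of its exon bases are shared with CCDC85C on the opposite strand.

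**Figure D2:**
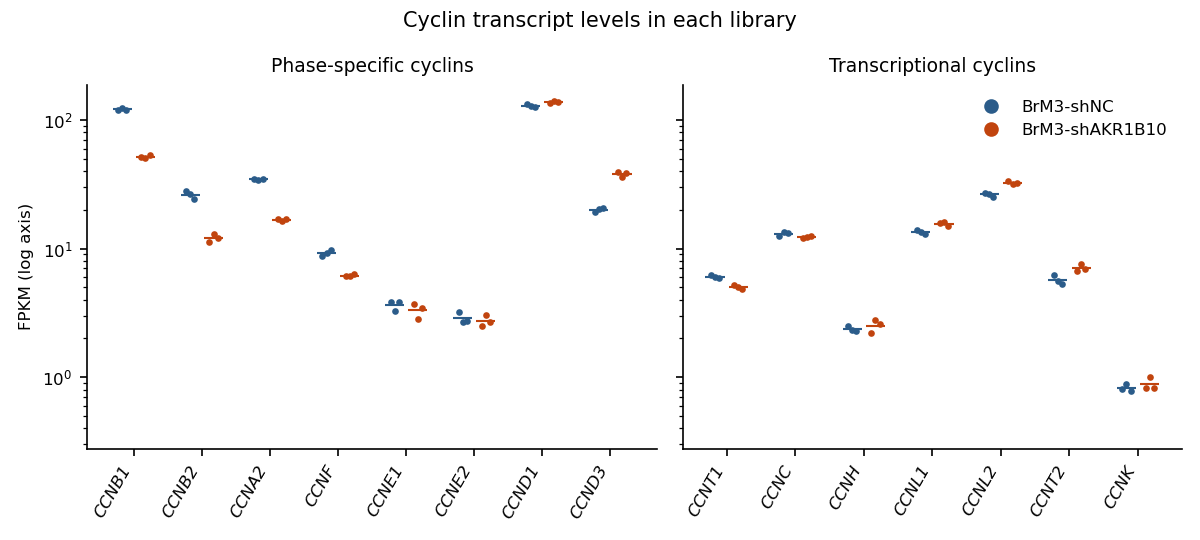
FPKM (log axis) of 8 phase-specific cyclins (left) and 7 transcriptional cyclins (right) in each library, with 1 point per library and a line at the group mean, blue for BrM3-shNC and orange for BrM3-shAKR1B10. The orange points lie well below the blue for CCNB1, CCNB2, CCNA2 and CCNF and above for CCND3, while the groups lie closer together or overlap for the transcriptional cyclins. CCND2, at 0 reads, is not drawn.

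The remaining cyclins have roles outside these sets. CCNI, an atypical cyclin with no settled CDK partner in the cycle, was at 37.6, 36.5 and 36.7 FPKM in BrM3-shNC and 24.9, 26.0 and 25.9 FPKM in BrM3-shAKR1B10 (ENSG00000118816, chr4:77047158-77076005, minus strand). All silenced libraries were below the controls, and the log2 fold change of -0.53 ± 0.03 (SE, limma adjusted p = 6.42e-05) lay just past the fold change threshold. It was -0.49 on TPM, -0.46 after quantile normalization and -0.48 with voom, where it no longer passed. CCNG1 and CCNG2, which encode cyclin G1 and its paralog cyclin G2, had log2 fold changes of -0.19 and -0.31 (limma adjusted p = 0.0294 and 0.00156), and the adjusted p of CCNG1 was above 0.05 in 8 of 15 alternatives, at up to 0.0904. CCNY, a membrane-bound partner of CDK14 and CDK16, had a log2 fold change of 0.15 (limma adjusted p = 0.0802).

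The 4 CDKs of the cell cycle had negative log2 fold changes, as had 6784 of all 13150 genes tested, and their groups did not overlap, as for 54.7% of all. CDK1 alone of the 4 was called lower, beside 7.45% of all genes tested. CDK1, the mitotic kinase (ENSG00000170312, chr10:60778331-60794852, plus strand), was at 75.3, 69.4 and 71.4 FPKM in BrM3-shNC and 36.0, 34.7 and 32.0 FPKM in BrM3-shAKR1B10. Every silenced library was below every control, and the mean fell to 47.5% (log2 fold change -1.07 ± 0.05, SE, limma adjusted p = 3.02e-05). CDK1 and its cyclin fell by similar amounts, so that the ratio of CCNB1 to CDK1 was 1.69 ± 0.0975 in BrM3-shNC and 1.52 ± 0.128 in BrM3-shAKR1B10 (SD, n = 3), with overlapping values.

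CDK2, the partner of cyclins E and A, was at 9.53, 10.1 and 10.6 FPKM in BrM3-shNC and 8.49, 8.93 and 8.54 FPKM in BrM3-shAKR1B10 (log2 fold change -0.22, limma adjusted p = 0.0147, and 0.0638 on TPM). CDK4 was at 17.3, 18.7 and 17.8 FPKM in BrM3-shNC and 15.3, 14.6 and 15.5 FPKM in BrM3-shAKR1B10 (log2 fold change -0.24, limma adjusted p = 0.00469). CDK6 was at 6.67, 6.29 and 6.17 FPKM in BrM3-shNC and 5.32, 5.44 and 5.04 FPKM in BrM3-shAKR1B10 (log2 fold change -0.27, limma adjusted p = 0.00669). The means of these 3 G1 and S phase kinases in BrM3-shAKR1B10 were 82.6% to 85.8% of BrM3-shNC, past the adjusted p but short of the fold change needed for a call. The ratio of CDK1 to CDK2 was 7.16 ± 0.641 in BrM3-shNC and 3.96 ± 0.26 in BrM3-shAKR1B10 (SD, n = 3). The exons of CDK4 share 43.2% of their bases with TSPAN31, and those of CDK2 share 16.8% with other genes, on the opposite strand in both cases.

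Of the 6 transcriptional CDKs, 1 was lower and 0 higher, a count close to the 7.45% lower and 5.83% higher of all genes tested. CDK8, a Mediator kinase (ENSG00000132964, chr13:26254104-26405238, plus strand), was at 7.73, 7.61 and 8.27 FPKM in BrM3-shNC and 5.58, 5.39 and 5.45 FPKM in BrM3-shAKR1B10. The groups did not overlap (log2 fold change -0.52 ± 0.05, SE, limma adjusted p = 0.000321), but the fold change was close to the threshold. It was -0.48 without replicate 3 of BrM3-shNC, -0.48 on TPM, -0.47 with voom and -0.45 with a pseudocount of 1, where the gene was no longer called. CDK19, its paralog in Mediator, had a log2 fold change of -0.12 (95% interval -0.28 to 0.04, limma adjusted p = 0.191), and CDK8 made up 58.6% ± 1.69 of the summed FPKM of the pair in BrM3-shNC and 51.8% ± 0.761 in BrM3-shAKR1B10 (SD, n = 3).

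CDK7, the CDK-activating kinase that also phosphorylates RNA polymerase II, was at 24.6, 21.9 and 22.4 FPKM in BrM3-shNC and 21.0, 20.8 and 20.1 FPKM in BrM3-shAKR1B10 (log2 fold change -0.15, limma adjusted p = 0.0484). That p did not hold in 11 of 15 alternatives, which gave 0.0358 to 0.135. CDK9, the kinase of P-TEFb, was at 18.0, 17.4 and 18.3 FPKM in BrM3-shNC and 17.3, 15.8 and 17.3 FPKM in BrM3-shAKR1B10 (log2 fold change -0.09, limma adjusted p = 0.164). The 2 groups did not overlap for CDK7 or CDK9, by a small margin in each. CDK12 and CDK13, elongation kinases that pair with cyclin K, overlapped between the groups, with log2 fold changes of 0.05 and 0.07. CDK5, a kinase best known from neurons and activated there by proteins that are not cyclins, had a log2 fold change of 0.31 ± 0.07 (SE, limma adjusted p = 0.0134), at 14.9 FPKM on average in BrM3-shNC and 18.5 in BrM3-shAKR1B10.

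The CDK inhibitors split by gene. Of the CIP/KIP family, CDKN1A encodes p21, which inhibits CDK2 complexes (ENSG00000124762, chr6:36676460-36687339, plus strand). It was at 8.02, 8.80 and 8.44 FPKM in BrM3-shNC and 13.8, 13.8 and 13.1 FPKM in BrM3-shAKR1B10. All silenced libraries exceeded all controls, by 1.61-fold on average (log2 fold change 0.68 ± 0.05, SE, limma adjusted p = 0.000104). CDKN1B, which encodes p27, was at 28.5, 28.0 and 28.0 FPKM in BrM3-shNC and 27.7, 25.0 and 25.5 FPKM in BrM3-shAKR1B10 (log2 fold change -0.11, 95% interval -0.22 to -0.004, limma adjusted p = 0.0878). The groups lay next to each other, and the adjusted threshold was not passed. The ratio of CDKN1A to CDKN1B was 0.299 ± 0.0163 in BrM3-shNC and 0.521 ± 0.0266 in BrM3-shAKR1B10, and that of CDKN1A to CDK2 was 0.836 ± 0.0387 and 1.57 ± 0.054 (SD, n = 3). CDKN1C, which encodes p57, had 6 to 30 reads per library at 0.134 to 0.663 FPKM. In a limma fit with no filter on low values its log2 fold change was -0.71 ± 0.45 (SE, adjusted p = 0.407), a difference not resolved at this depth.

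The INK4 inhibitors, which bind CDK4 and CDK6, were 2 lower and 0 higher of 4, beside 7.45% and 5.83% of all genes tested. CDKN2C, which encodes p18 (ENSG00000123080, chr1:50960745-50974633, plus strand), was at 7.77, 9.70 and 11.2 FPKM in BrM3-shNC and 5.71, 5.26 and 5.64 FPKM in BrM3-shAKR1B10. CDKN2D, which encodes p19 (ENSG00000129355, chr19:10566462-10569059, minus strand), was at 6.20, 8.30 and 8.17 FPKM in BrM3-shNC and 5.08, 3.02 and 4.92 FPKM in BrM3-shAKR1B10. The groups did not overlap for either, but the standard errors were larger than that of any cyclin tested, with log2 fold changes of -0.76 ± 0.13 and -0.81 ± 0.21 (SE, limma adjusted p = 0.00368 and 0.0228). CDKN2D, counted with 82 to 224 reads, lost its call without replicate 2 or replicate 3 of BrM3-shNC (limma adjusted p = 0.0684 and 0.0672) and with no filter on low values (limma adjusted p = 0.06). CDKN2A, which encodes p16 and, in another reading frame, p14ARF, was the most abundant inhibitor per length. It was at 66.5, 83.8 and 83.7 FPKM in BrM3-shNC and 67.1, 63.5 and 67.8 FPKM in BrM3-shAKR1B10, so that replicate 1 of BrM3-shNC lay among the silenced libraries (log2 fold change -0.23, limma adjusted p = 0.088). Without that library the log2 fold change was -0.34 (limma adjusted p = 0.00172), still short of the fold change threshold. CDKN2B, which encodes p15 and neighbors CDKN2A, had a log2 fold change of 0.25 ± 0.04 (SE, limma adjusted p = 0.00294).

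CDKN3 carries an inhibitor's name but encodes a phosphatase that acts on the activating phosphate of CDKs (ENSG00000100526, chr14:54396849-54420218, plus strand). It was at 40.4, 36.3 and 36.6 FPKM in BrM3-shNC and 16.6, 16.3 and 18.0 FPKM in BrM3-shAKR1B10. The decrease to 44.9% of the BrM3-shNC mean was of the size seen for CCNB1 and CDK1 (log2 fold change -1.15 ± 0.06, SE, limma adjusted p = 2.94e-05).

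**Figure D3:**
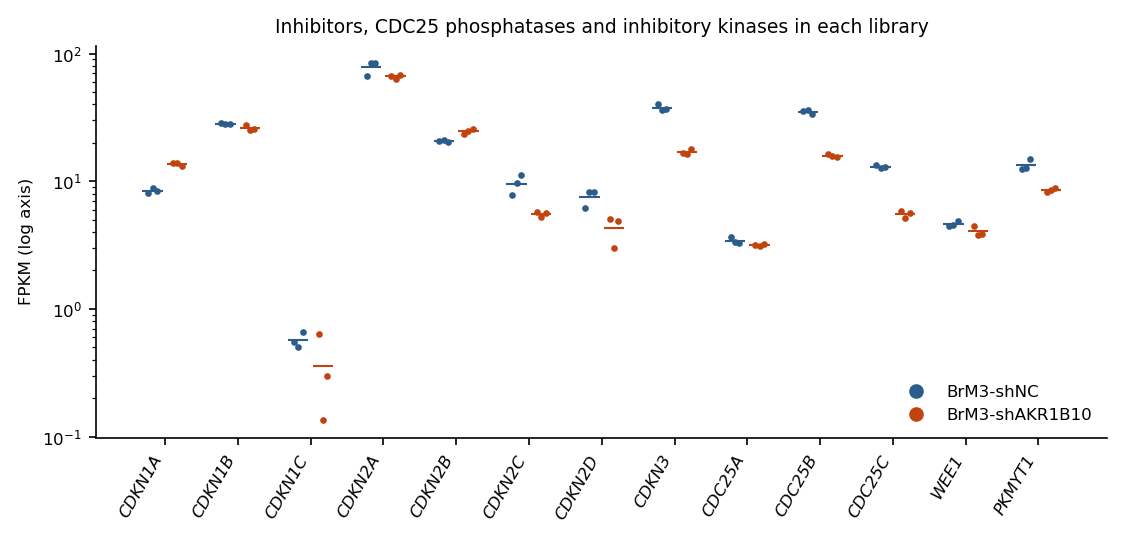
FPKM (log axis) of the 8 genes named CDKN (CDKN3 encodes a phosphatase), the 3 CDC25 phosphatases and the inhibitory kinases WEE1 and PKMYT1 in each library, with 1 point per library and a line at the group mean, blue for BrM3-shNC and orange for BrM3-shAKR1B10. CDKN1A is higher in BrM3-shAKR1B10, CDKN2C, CDKN2D, CDKN3, CDC25B, CDC25C and PKMYT1 are lower, and CDKN1C is near the limit of detection with wide scatter.

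The CDC25 phosphatases activate CDKs by removing inhibitory phosphates, and 2 of the 3 were lower, beside 7.45% of all genes tested. CDC25B (ENSG00000101224, chr20:3786772-3806121, plus strand) was at 35.5, 35.8 and 33.4 FPKM in BrM3-shNC and 16.4, 15.8 and 15.4 FPKM in BrM3-shAKR1B10. CDC25C (ENSG00000158402, chr5:138285265-138338355, minus strand) was at 13.4, 12.8 and 13.0 FPKM in BrM3-shNC and 5.82, 5.19 and 5.61 FPKM in BrM3-shAKR1B10. Both act on CDK1 at the entry into mitosis, and the means fell to 45.5% and 42.5% of BrM3-shNC, with log2 fold changes of -1.13 ± 0.04 and -1.22 ± 0.05 (SE, limma adjusted p = 1.38e-05 and 2.08e-05). CDC25A, which acts already at the entry into S phase, had a log2 fold change of -0.11 (95% interval -0.27 to 0.04, limma adjusted p = 0.212). It made up 6.65% ± 0.299 of the summed FPKM of the 3 genes in BrM3-shNC and 12.8% ± 0.433 in BrM3-shAKR1B10 (SD, n = 3).

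The inhibitory kinases differed likewise. PKMYT1, the membrane-bound kinase specific to CDK1 (ENSG00000127564, chr16:2968024-2980539, minus strand), was at 12.4, 12.7 and 14.9 FPKM in BrM3-shNC and 8.20, 8.50 and 8.86 FPKM in BrM3-shAKR1B10. No value was shared between the ranges (log2 fold change -0.64 ± 0.08, SE, limma adjusted p = 0.000956), and 31.6% of the exon bases are shared with PAQR4 and KREMEN2 on the opposite strand. WEE1, the nuclear kinase that acts on CDK1 and CDK2, overlapped between the groups (log2 fold change -0.18, 95% interval -0.37 to 0.01, limma adjusted p = 0.108). Transcripts of a kinase that restrains CDK1 and of phosphatases that release it were thus lower in the same libraries.

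Both CKS genes, which encode small subunits that dock cyclin-CDK complexes to their substrates, were lower, beside 7.45% of all genes tested. CKS2 (ENSG00000123975, chr9:89311198-89316703, plus strand) was at 138.5, 135 and 129 FPKM in BrM3-shNC, the highest level of the 46 genes there, and at 63.8, 62.0 and 62.4 FPKM in BrM3-shAKR1B10. Its decrease was near that of CDK1 (log2 fold change -1.09 ± 0.04, SE, limma adjusted p = 1.01e-05), and the ratio of CKS2 to CDK1 was 1.86 ± 0.0728 and 1.84 ± 0.1 in the 2 groups (SD, n = 3). CKS1B, which also serves the SCF-SKP2 ubiquitin ligase in the destruction of p27 (ENSG00000173207, chr1:154974653-154979249, plus strand), was at 43.1, 44.1 and 46.3 FPKM in BrM3-shNC and 27.7, 28.9 and 30.8 FPKM in BrM3-shAKR1B10. It was lower without overlap, by less than CKS2 (log2 fold change -0.61 ± 0.05, SE, limma adjusted p = 0.000182).

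Promoters of these genes were read because many genes of G2 and mitosis are known to be controlled through a cell cycle homology region (CHR), bound by the DREAM and MYB-MuvB complexes, and through CCAAT boxes, bound by NF-Y. RefSeq windows from 250 bases before to 50 bases after a transcription start (GRCh38.p14) were matched for 39 of the 46 genes, 61 windows in all. In 50 of the 61 the first 20 bases from the start lay in a GENCODE 29 transcript of the gene. No window was matched for CCND1, CCND2, CCNE2, CDK2, CDKN1C, WEE1 and PKMYT1. The words searched on both strands were TTTGAA and TTCGAA for the CHR, CCAAT, and TTCCCGC, TTTGGCGC and TTTCCCGC for E2F, the last of which contains the first of the 3. A match is a description and not a bound site, and a gene with more windows has more chances of one. The words were chosen with earlier results of these data known, and differences in their shares were not tested.

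A CHR word stood in a window of 9 of the 14 genes called lower that had one (64.3%), in 2 of the 25 other genes (8%, CCNC and CDK19), and in 19.5% of all 27305 genes with a window. The CHR word of CCNI lay after the start, at 13, and that of CDKN3 far before it, at -170. CCAAT stood in 12 of the 14 (85.7%), in 10 of the 25 (40%) and in 39.7% of all genes. Both words stood in 8 of the 14 (CCNB2, CCNF, CDK1, CDKN3, CDC25B, CDC25C, CKS1B and CKS2), in 2 of the 25 and in 7.85% of all genes. An E2F word stood in 3 of the 14 (CDKN2C, CDC25B and CDC25C), in 2 of the 25 and in 8.5% of all genes. Of the 8901 genes both tested and with a window, 14.8% held a CHR word, 42.9% CCAAT, 6.3% both and 14.2% an E2F word. The 8 genes with log2 fold changes under -1 held CCAAT in 8 cases and a CHR word in 6, with CCNA2 and CCNB1 lacking the latter in these windows.

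The stretches around 1 word of each of 10 genes called lower are printed here in lower case with the word in capitals, on the strand of the gene, so that their letters can be compared. TTCAAA and ATTGG are the words TTTGAA and CCAAT read from the other strand. CHR words stood within 30 bases before a RefSeq start in CKS2, CCNB2, CDC25C, CKS1B and CDK1. For CDC25C that start was at 138331804, and from another start at 138331877 the word lay at 44. Its windows at 138338355 and 138338341 held an E2F word alone.
CKS2, chr9:89311154-89311183, plus strand: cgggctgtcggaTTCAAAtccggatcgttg
CCNB2, chr15:59105105-59105134, plus strand: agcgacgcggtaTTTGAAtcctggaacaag
CDC25C, chr5:138331817-138331846, minus strand: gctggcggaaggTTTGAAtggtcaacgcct
CKS1B, chr1:154974639-154974668, plus strand: gcgggcggcgtgTTTGAAagcgaggccaaa
CDK1, chr10:60778448-60778477, plus strand: ccctttagcgcggtgagTTTGAAactgctc
CDC25B, chr20:3796260-3796289, plus strand: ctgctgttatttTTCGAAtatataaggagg
CCNF, chr16:2429350-2429379, plus strand: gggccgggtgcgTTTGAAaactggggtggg
CDKN3, chr14:54396825-54396854, plus strand: tcccgcgcgtctTTCAAAggtcttctagga
CCNA2, chr4:121823922-121823951, minus strand: gcgagcgctttcATTGGtccatttcaatag
CCNB1, chr5:69167051-69167080, plus strand: gaccggcagccgCCAATgggaagggagtga

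The CCAAT word printed for CCNB1 began 87 bases before the RefSeq start, and a second began 55 bases before it, 32 bases apart on the same strand. After the sequences had been seen, pairs of CCAAT on the same strand with starts 31 to 34 bases apart were counted. They were found in CCNB1, CCNB2, CDK1 and CKS1B, 4 of the 14 genes called lower, in 0 of the 25 other genes in 1.2% of all genes with a window and in 1.99% of the 8901 genes tested with one. CCNB2 held 3 CCAAT words at successive distances of 33 bases, at -120, -87 and -54. Of the primers the study used for chromatin immunoprecipitation at CCNB1, the reverse primer of site 7 (-92 to -74) and the forward primer of site 8 (-87 to -69) both cover the CCAAT word at -87.

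**Figure D4:**
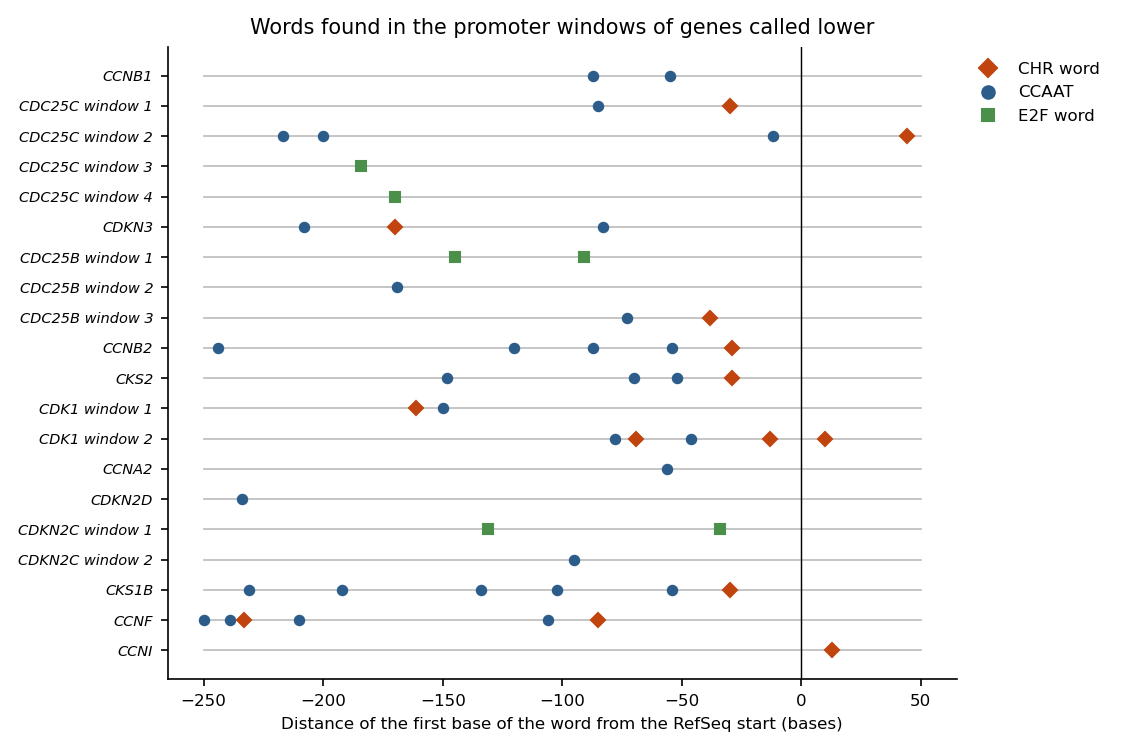
Positions of CHR words (diamonds), CCAAT (circles) and E2F words (squares) in the RefSeq promoter windows of genes called lower, with the distance in bases of the first base of each word from the transcription start on the x axis and 1 line per window that held a word. A CHR word lies within 30 bases before a start in CKS2, CCNB2, CDC25C (1 window), CKS1B and CDK1, with CCAAT upstream of it, and CCNB1 holds CCAAT alone.

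Other genes of the pathway were taken from lists by role. Of 39 partners and regulators of the cell cycle CDKs, 37 were tested, of which 13 were lower (35.1%, beside 7.45% of all genes tested) and 0 higher (beside 5.83%). Their median log2 fold change was -0.23, and that of all genes tested was -0.01. The 2 with the largest decreases were AURKA, the mitotic kinase that activates PLK1, and MYBL2, the MYB protein that joins the MuvB core on CHR promoters. AURKA was at 51.1, 49.8 and 49.2 FPKM in BrM3-shNC and 19.2, 19.9 and 20.6 FPKM in BrM3-shAKR1B10 (log2 fold change -1.33, limma adjusted p = 8.72e-06). MYBL2 was at 99.8, 104 and 105 FPKM in BrM3-shNC and 41.5, 44.5 and 44.2 FPKM in BrM3-shAKR1B10 (log2 fold change -1.24, limma adjusted p = 9.91e-06). Both groups of values were well apart, as for CCNB1.

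The mitotic genes CDC20, an activator of the anaphase-promoting complex, and PLK1, the kinase that switches on CDC25C, had log2 fold changes of -1.18 and -1.14, and BORA, a cofactor of AURKA, -1.10. FOXM1 and LIN9, which drive G2 and mitotic transcription with MYBL2, had -0.85 and -0.79. SKP2, the receptor that sends p27 to destruction with CKS1B, had -0.88. FBXO5, an inhibitor of the anaphase-promoting complex, had -0.61, RBL1, the pocket protein p107, -0.60, and BTRC, the receptor that targets WEE1 and CDC25A, -0.58. PPP2R2D, a subunit of the phosphatase that opposes CDK1, had -0.63, and CDK2AP1, a protein that binds CDK2, -0.50, at the edge of the fold change threshold. The alternatives were not run on the calls of these pathway genes. RB1, the main target of CDK4 and CDK6, named after its values were seen, overlapped between the groups with a log2 fold change of -0.11.

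Of 16 partners of the transcriptional CDKs, 15 were tested, 1 was lower (6.67%, near the 7.45% of all genes tested) and 0 were higher, with a median log2 fold change of -0.05. The lower gene was ELL2, an elongation factor of the complex that holds P-TEFb, at 20.5, 19.8 and 19.2 FPKM in BrM3-shNC and 13.1, 11.8 and 12.2 FPKM in BrM3-shAKR1B10 (log2 fold change -0.68, limma adjusted p = 0.000124). Of 25 further cyclin and CDK family genes, 12 were tested, with 0 higher and 1 lower (8.33%, again near the share of all genes tested). It was CDK14, a partner of cyclin Y (log2 fold change -0.55, limma adjusted p = 0.000533).

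**Figure D5:**
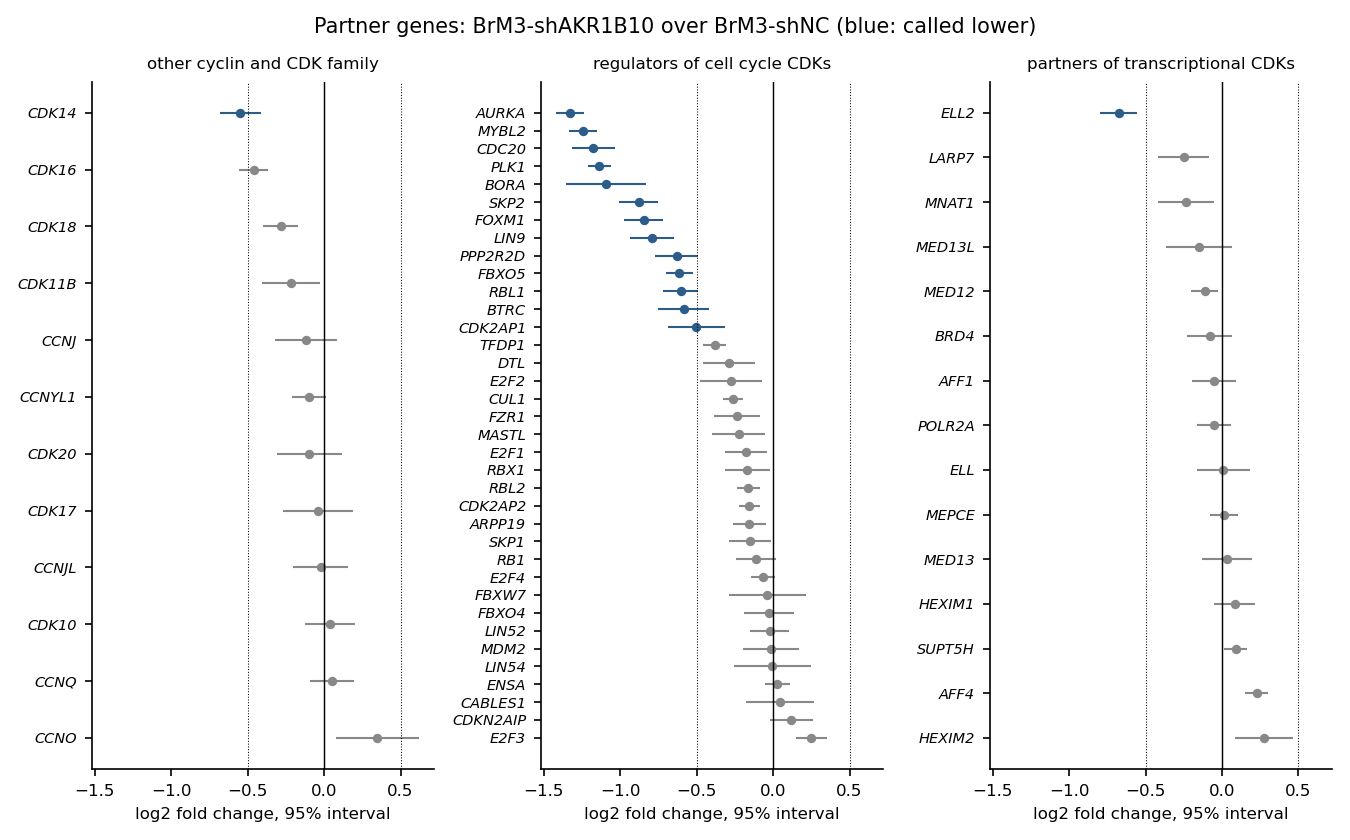
Log2 fold changes (BrM3-shAKR1B10 over BrM3-shNC, x axis) with 95% intervals from limma for tested genes among further cyclin and CDK family genes (left), partners and regulators of cell cycle CDKs (middle) and partners of transcriptional CDKs (right), with dotted lines at 0.5 and -0.5. Blue points are genes called lower, 13 in the middle panel and 1 in each of the others.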

How the data were processed

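mRNA of 3 BrM3-shAKR1B10 and 3 BrM3-shNC libraries was captured with poly-T beads and sequenced in pairs. The authors aligned reads with HISAT2 2.0.5, counted them per gene with featureCounts 1.5.0-p3 (per the submitters' processing notes) and deposited 1 table of FPKM values, with replicates not pooled. The genome build is not given in the sources used here, and identifiers and positions of 58735 of 58735 genes match GENCODE 29 (GRCh38). FPKM with gene length came out as whole reads for 100% of values (within 0.05 reads), which gave the depths and the voom alternative. Voom scaled to the reads on the genes tested. It gave log2 fold changes of -1.18 for CCNB1 and 0.14 for CCND1, against -1.23 and 0.09 on FPKM. How the counting treated reads on overlapping genes is not given.

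Genes with a mean of at least 1 FPKM entered limma 3.58.1 (R 4.3.3, eBayes with a trend, Benjamini-Hochberg) as log2(FPKM + 0.1), and were called at the study's thresholds of 0.05 and 0.5. The fit was tested on simulated data with fewer changed genes than were called here, and the outcome is not reported here. The authors' own test was DESeq2, which was not rerun here. The main fit did not pair libraries. All 46 genes are named by role, with values in every library for those called and for 12 fixed cyclins, kinases and inhibitors. The genes, lists and words were chosen with earlier results of these data known. Medians of lists are descriptions, with no set test. The alternatives were pseudocounts, filters, TPM, quantile normalization, eBayes without a trend, voom, a replicate block, other fold change thresholds and each library left out. Promoter windows came from RefSeq GRCh38.p14. One gene of a pathway list is not reported here.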

Additional observations from a re-analysis of the deposited data

How the results depend on the processing

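Over 17 alternatives, 692 of 725 pairs of a gene and an alternative kept their direction and their call, or lack of one, by both thresholds together. By the adjusted p alone, 36 of 639 pairs, in 10 genes and without the fold change thresholds, were on the other side of 0.05. These genes were CDK7 (11 of 15 alternatives), CCNG1 (8), CCND1 (4), CCNY and CDKN2D (3 each), CDK2 and CDKN2A (2 each), and CCNT2, CDKN1B and WEE1 (1 each). Apart from the fold change thresholds, 13 to 15 genes were lower and 2 higher, and 13 lower and 2 higher genes were called in all 6 fits that leave out a library. The calls that were lost were those of CCNI, CDK8 and CDKN2D, described above. With an absolute log2 fold change above 1, 8 genes were lower and 0 higher, while limma called 2 higher and 15 lower at 0.5. With no fold change threshold, 7 were higher, and 1 transcriptional cyclin was lower. With a mean of at least 5 FPKM, which leaves fewer cyclins, the median log2 fold change was -0.81 over the phase-specific and 0.22 over the transcriptional cyclins. CCNE2, not called in any fit, turned to 0.0030 without replicate 1 of BrM3-shAKR1B10 and to 0.0199 without replicate 1 of BrM3-shNC, in a range of -0.14 to 0.0199 over the libraries left out. The cause was not tested.

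The labels do not say whether the replicate numbers pair the libraries. How far libraries of the same number stood from their group means correlated at -0.0155, 0.00388 and 0.00383 across genes. A replicate block in the fit again gave 15 lower and 2 higher genes, with medians of -0.35 over the phase-specific and 0.15 over the transcriptional cyclins. With 3 libraries per group some small differences are not resolved, as for CDK7 and CCNG1, and with 1 hairpin off-target effects are not. Reads on genes that overlap on opposite strands could not be assigned by strand, which touches CCNK, CDK4, CCNE2, PKMYT1, CCNH and CDK2 most (16.8% to 59.5% of exon bases) and, among the genes called lower, also CCNF, CCNA2 and CDC25C (8.78% to 11.8%). CCND2, with 0 reads, could not be compared, and CDKN1C only with a wide error.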
